A study of Mus musculus with 2 samples.

Results

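The 10 genes described here are Trp53, which encodes the transcription factor p53; its inhibitors Mdm2 and Mdm4; the p53-induced genes Ccng1 and Zmat3; the growth-arrest genes Gadd45a, Gadd45b and Gadd45g; and the antiproliferative genes Btg1 and Btg2. They were taken by gene symbol, through the GENCODE mouse annotation, from 43346 gene rows, and all 10 were found in both gene tables. Poly(A) RNA was sequenced in G1E-ER4 cells, an immortalized mouse erythroid line that lacks functional endogenous Gata1 and expresses a GATA1 protein joined to the ligand-binding domain of the estrogen receptor. Both libraries, called biological replicates 1 and 2 in the labels, came from cells exposed to 10 nM 17beta-estradiol for 30 h, which activates the fusion protein. No untreated cells were analysed here, so the values are levels in 1 differentiated state of 1 line and carry no effect of estradiol. The labels do not say how the cultures were separated, and p-values therefore cover only these 2 libraries.

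The p53 protein is kept low in unstressed cells by MDM2, a ubiquitin ligase that marks it for degradation, and by MDM4, a related protein that binds and blocks its activation domain. Mdm2 is itself a p53 target, which closes a feedback loop. GADD45 proteins are small stress-induced proteins that bind PCNA, the kinase MAP3K4 and the CDK1 complex. BTG proteins recruit the CCR4-NOT deadenylase, which shortens poly(A) tails and promotes mRNA decay. Erythroid precursors stop dividing as they mature, and excess p53 activity is known from inherited anemias with ribosomal protein defects.

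The libraries held 73681318 and 56056404 expected counts. The cells had the markers of their labelled type: all 14 erythroid markers reached 1 TPM (a level corrected for transcript length and scaled to the same total in each library) in both libraries, with summed levels of 271571 and 286341 TPM. None of 12 myeloid, 7 mast cell, 8 lymphoid or 7 fibroblast markers did, and 3 of 8 megakaryocyte markers did, with summed levels of 21.81 and 17.97 TPM. The erythroid markers include Gata1 (2035.9 and 1607.81 TPM), in a line that expresses a GATA1 fusion protein. The part of the fusion in that level was not tested. The libraries differed in several markers. All 14 erythroid markers differed in scaled counts, 4 higher and 10 lower in replicate 2, with a median absolute log2 difference of 0.40, beside 0.24 over all genes tested. Of 5 megakaryocyte markers tested, 3 were higher and 1 lower in replicate 2. The 4 myeloid markers tested were all higher in replicate 2, with a median log2 difference of 6.03. Summed myeloid markers were at 0.32 TPM in replicate 1 and 11.61 TPM in replicate 2, led by Mpo (0.19 and 3.96 TPM), while S100a8, Lyz1 and Ly6g were at 0 counts in both. The part of these transcripts in the differences between libraries given below was not tested.

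The genes spanned a wide range of levels, with Gadd45a highest and Gadd45b lowest. In both libraries 9 of the 10 genes reached 1 TPM, against 35.3% of 21474 protein-coding genes, 8 reached 10 TPM, against 20.4%, and 3 reached 100 TPM, against 4.32%. Their median level was 70.8 TPM, beside 0.015 TPM for all protein-coding genes, many of which are silent in this line. These shares describe a set of known genes chosen with results in view and carry no test. In order of mean TPM the genes were Gadd45a, Btg2, Gadd45g, Mdm4, Trp53, Ccng1, Mdm2, Btg1, Zmat3 and Gadd45b. Of the 9 neighbouring pairs in that order, Gadd45g and Mdm4 overlapped in range, as did Mdm4 and Trp53, and the other 7 pairs did not overlap over the 2 libraries.

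**Figure D1:**
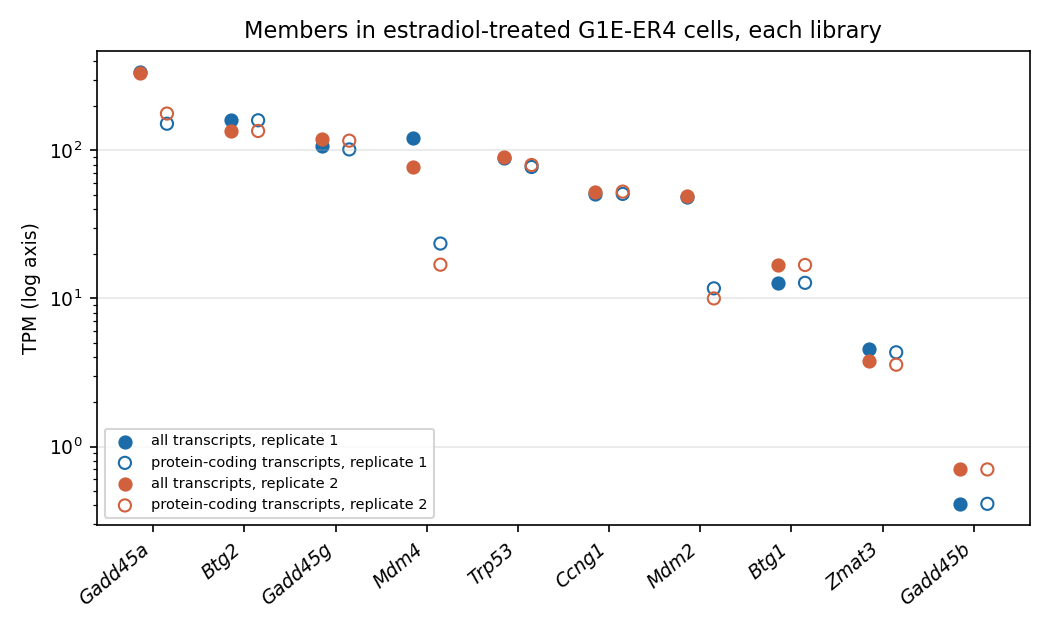
Level of each gene in TPM on a log axis, for replicate 1 (blue) and replicate 2 (orange); filled points sum all transcripts of the gene and open points only those annotated as protein-coding. Gadd45a stands highest at 337.24 and 332.94 TPM, and the open points of Mdm2 and Mdm4 lie well below the filled ones.

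Trp53 (ENSMUSG00000059552.9, chromosome 11, 69580359 to 69591873, plus strand, mm10) stood at 88.48 and 90.93 TPM in replicates 1 and 2, on 10176 and 7902 counts. The libraries were close (89.7 ± 1.73 TPM, SD, n = 2), and 94.8% of protein-coding genes had a lower mean level. The pseudogene Trp53-ps had 0 counts in both libraries. Wrap53, which starts beside Trp53 on the opposite strand without overlapping it in the annotation used, had 17.66 and 18.78 TPM from 2161 and 1810 counts.

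Most Trp53 signal was assigned to a transcript with a different protein end. Trp53-202, whose last exon begins 96 bases further upstream (chromosome 11, 69591254 to 69591349), took 60.60% of the gene's TPM in replicate 1 and 70.46% in replicate 2. The full-length coding transcripts with the regular last exon, Trp53-201 and Trp53-203, together took 26.78% and 17.26%. The extended form was thus the larger one in both libraries, with 6664 and 6050 counts against 2855 and 1437. Among the 4 full-length coding transcripts, its share was 69.3% and 80.3%. In the extended form the reading frame ends inside the added bases after 52 coding bases, which replace the 79 coding bases of the regular last exon, so its coding sequence is 1134 bases long against 1161 in Trp53-201. This exon holds the C-terminal regulatory part of p53. The ends of both coding sequences, from GENCODE M21 transcripts on GRCm38, follow in the 5′ to 3′ direction, with the 24 bases of the preceding exon in lower case and the coding bases of each last exon in capitals. Stop codons are not shown.
Trp53-202: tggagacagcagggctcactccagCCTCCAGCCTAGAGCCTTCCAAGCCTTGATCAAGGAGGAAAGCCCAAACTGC
Trp53-201: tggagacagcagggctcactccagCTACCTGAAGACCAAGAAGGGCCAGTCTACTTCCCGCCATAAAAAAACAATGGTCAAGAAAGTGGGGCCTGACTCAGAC

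The split between Trp53-201 and Trp53-203 is less certain than the split by last exon. Trp53-203 had 24.87% and 15.75% by the maximum-likelihood estimate but 12.82% and 12.13% by the posterior mean, whereas the 2 forms without the extension summed to 26.34% and 17.66% by the posterior mean. Trp53-202 also starts 46 bases downstream of Trp53-203, so its estimate rests on the start as well as on the last exon. Trp53-206, which has the extended exon and the upstream start, had 0 counts in both libraries. The short non-coding Trp53-204 took 10.23% and 10.49% of TPM but 1.64% and 1.60% of counts.

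**Figure D2:**
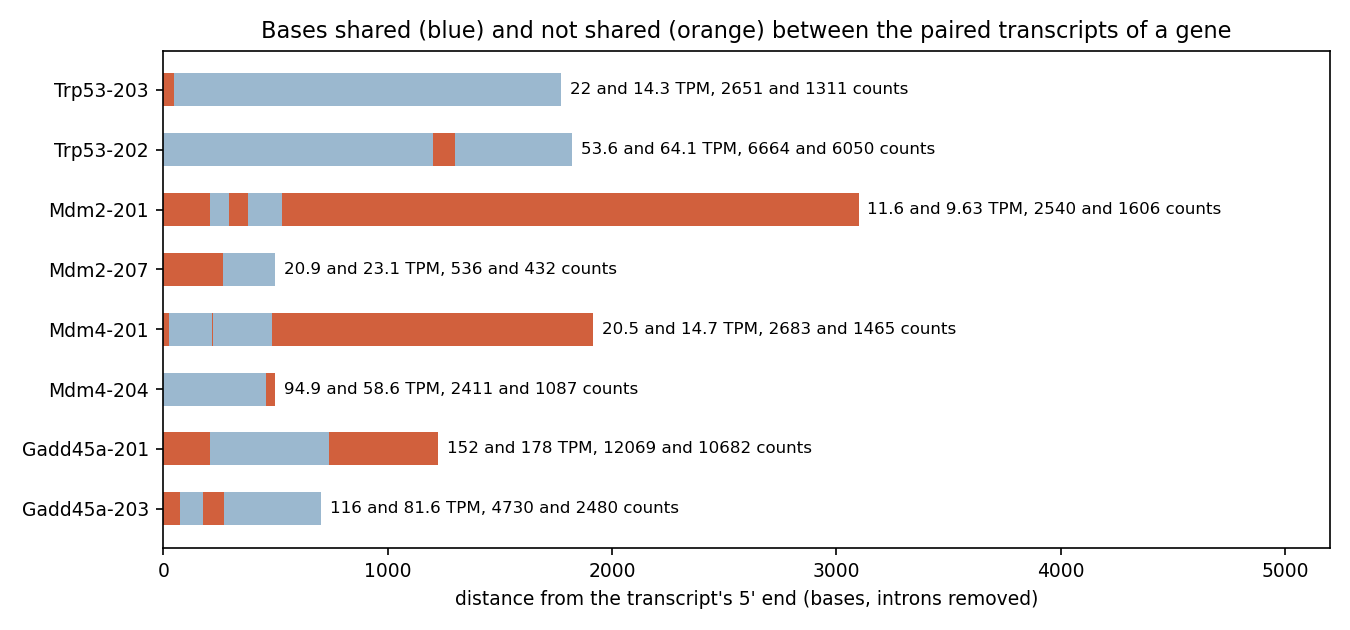
Transcript pairs of 4 genes drawn to scale in bases from the 5′ end with introns removed, blue where the bases also occur in the paired transcript and orange where they do not; the values are TPM and expected counts in replicates 1 and 2. Mdm4-204 holds 40 intron bases at its 3′ end that Mdm4-201 lacks, and the extension of Trp53-202 is the orange block of 96 bases.

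Mdm2 (ENSMUSG00000020184.10, chromosome 10, 117688875 to 117710758, minus strand) measured 48.27 and 48.93 TPM in replicates 1 and 2, on 3706 and 2471 counts (48.6 ± 0.467 TPM). The libraries were close. Within a library the level of Mdm2 over that of Trp53 was -0.87 and -0.89 as a log2 ratio of TPM, so Trp53 was 1.85-fold higher. After adjustment for GC content the ratio was -0.07, and the difference was nearly gone. With coding transcripts alone Mdm2 had 11.71 and 10.01 TPM, and Trp53 was 7.25-fold higher (log2 ratio -2.86 ± 0.19).

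A short non-coding transcript held the largest share of Mdm2 TPM. Mdm2-207, a processed transcript of 499 bases, took 43.33% in replicate 1 and 47.12% in replicate 2, while the coding Mdm2-201 took 24.09% and 19.68%. By counts the order was the other way round: Mdm2-201 held 68.5% and 65.0%, and Mdm2-207 held 14.5% and 17.5% (536 and 432 counts). TPM divides counts by effective length, which gives a short transcript more TPM per count. Mdm2-207 starts in intron 1 with 264 bases that no coding transcript holds (chromosome 10, 117710029 to 117710292) and shares its other 235 bases with Mdm2-201. It lacks exon 3, the 85-base exon with the start codon (117709700 to 117709784). The non-coding Mdm2-203, at 23.47% and 26.75% of TPM, also lacks that exon, and all of its 570 bases occur in coding transcripts. The boundary of intron 1 and exon 2 in Mdm2-207, from GENCODE M21, is shown because it is the junction between the bases particular to this transcript and those it shares; capitals mark the last 60 intron bases.
Mdm2-207: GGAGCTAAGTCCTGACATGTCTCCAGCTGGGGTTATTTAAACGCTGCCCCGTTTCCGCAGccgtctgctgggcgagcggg

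Mdm4 (ENSMUSG00000054387.9, chromosome 1, 132959484 to 133030561, minus strand) measured 120.93 TPM in the first library and 77.17 TPM in the other, on 6825 and 3486 counts (99.05 ± 30.9 TPM). It had the widest absolute spread of the 10 genes, and replicate 1 was higher. The level of Mdm4 over Trp53 was 0.45 in replicate 1 and -0.24 in replicate 2 on the log2 scale, so their order turned between libraries. Adjusted for GC content the mean ratio was 1.61, with Mdm4 above Trp53. Mdm2 was below Mdm4 in both libraries (log2 -1.32 and -0.66, and -1.68 as a GC-adjusted mean).

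Most of the Mdm4 level in TPM came from Mdm4-204, a retained-intron transcript of 496 bases with 78.46% and 75.94% of TPM. The coding Mdm4-201 took 16.92% and 19.05%. By counts Mdm4-201 led with 39.3% and 42.0%, ahead of Mdm4-204 with 35.3% and 31.2% (2411 and 1087 counts) and of the long coding transcript Mdm4-210 with 21.7% and 23.1%. With coding transcripts alone Mdm4 had 23.51 and 16.92 TPM, below Trp53 in both libraries (log2 -1.98 ± 0.37). Mdm4-204 shares 456 bases with coding transcripts and ends 40 bases into the next intron (chromosome 1, 133009097 to 133009136). The pseudogene Mdm4-ps had 0 counts, and Gm29257, a pseudogene within Mdm4 on the opposite strand, had 12 and 7. The 3′ end of Mdm4-204, from GENCODE M21, shows the only bases outside coding transcripts in capitals, starting at the exon boundary.
Mdm4-204: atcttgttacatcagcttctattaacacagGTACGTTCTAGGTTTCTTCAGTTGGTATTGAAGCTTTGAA

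Ccng1 (ENSMUSG00000020326.7, chromosome 11, 40748552 to 40755311, minus strand), the gene of cyclin G1, had 50.89 and 52.73 TPM from 12736 and 10079 counts (51.8 ± 1.30 TPM). All of its counts went to the coding transcript Ccng1-201. Zmat3 (ENSMUSG00000027663.8, chromosome 3, 32334792 to 32366014, minus strand), which encodes a zinc finger RNA-binding protein, had 4.54 and 3.76 TPM from 1940 and 1416 counts (4.15 ± 0.552 TPM). The pair of p53-induced genes thus lay far apart, Ccng1 being 12.5-fold higher (log2 ratio 3.48 and 3.81). The log2 ratio was 5.0 after adjustment for GC content. The 7797-base coding transcript Zmat3-201 held 71.98% and 83.44% of TPM and 95.9% and 96.7% of counts.

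Gadd45a (ENSMUSG00000036390.6, chromosome 6, 67035096 to 67037457, minus strand) had 337.24 and 332.94 TPM from 20039 and 15635 counts (335.09 ± 3.04 TPM), above 98.6% of protein-coding genes. Gadd45g (ENSMUSG00000021453.2, chromosome 13, 51846678 to 51848468, plus strand) had 106.56 and 120.36 TPM from 7200 and 6147 counts (113.46 ± 9.76 TPM). Gadd45b (ENSMUSG00000015312.8, chromosome 10, 80930073 to 80932204, plus strand) had 0.41 and 0.70 TPM from only 34 and 44 counts, with exact 95% Poisson intervals of 0.284 to 0.573 and 0.509 to 0.940 TPM that cover counting error only. The GADD45 family was therefore unequally represented: Gadd45a was 2.96-fold above Gadd45g (log2 1.66 and 1.47), and Gadd45g was 207-fold above Gadd45b (log2 ratio of Gadd45b over Gadd45g -7.99 and -7.41). In bulk RNA, fewer cells with a transcript and less of it per cell cannot be told apart.

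A large share of Gadd45a was assigned to transcripts that keep an intron. The coding Gadd45a-201 held 44.95% and 53.33% of TPM, and the 4 retained-intron transcripts together held 55.05% and 46.67%, which was 39.8% and 31.7% of counts. Gadd45a-203 was the largest of these, with 34.34% and 24.50% of TPM. With coding transcripts alone Gadd45a had 151.6 and 177.57 TPM, its range overlapped that of Btg2, and it was 1.51-fold above Gadd45g (log2 0.59 ± 0.02). Gadd45g had little of this: Gadd45g-201 held 95.41% and 96.74%. E230016M11Rik, which overlaps Gadd45a on the other strand, had 55 and 27 counts. How strand was handled is not stated in the labels or headers, so reads of Gadd45a and of this gene may have been shared where they overlap, as may those of Mdm4 and Gm29257.

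Btg2 (ENSMUSG00000020423.6, chromosome 1, 134075170 to 134079120, minus strand), known as a p53 target, had 159.91 and 135.48 TPM from 30853 and 19934 counts (147.7 ± 17.3 TPM). Btg1 (ENSMUSG00000036478.7, chromosome 10, 96617006 to 96622809, plus strand) had 12.76 and 16.84 TPM from 4619 and 4661 counts (14.8 ± 2.89 TPM). Btg2 was higher in both libraries, 10.0-fold on average (log2 ratio of Btg1 over Btg2 -3.65 and -3.01). Each has 1 transcript in the tables. Btg1-ps1 and Btg1-ps2, whose names hold the Btg1 symbol, had 0 counts.

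GC content moved with the levels, and an adjustment for it changed 5 of the 10 by over 1.5-fold. After log2 TPM was centred within GC bins, Mdm4 came to 197.6 TPM, Ccng1 to 141.9 TPM, Gadd45a to 146.3 TPM, Gadd45g to 48.0 TPM and Gadd45b to 0.263 TPM. On that scale Mdm4 was the highest of the set, and the difference between Gadd45a and Btg2 (183.2 TPM) turned around. The part of GC content in the measured levels was not tested.

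**Figure D3:**
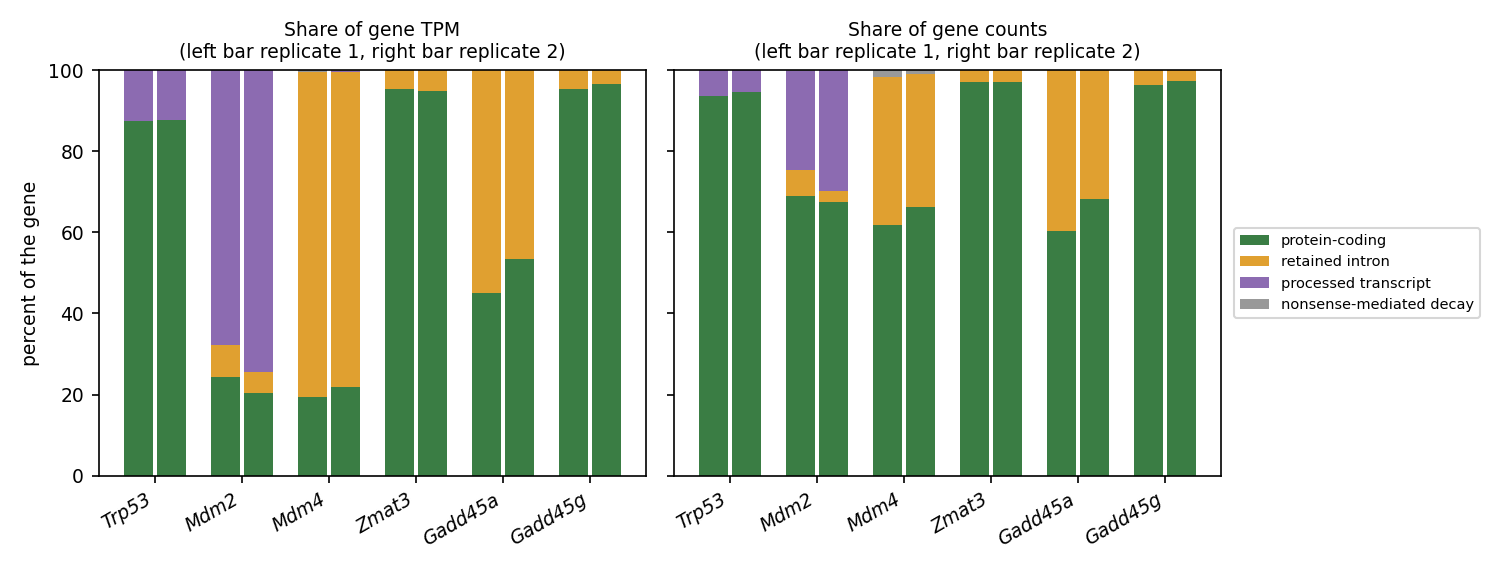
Share of each gene's TPM (left) and of its expected counts (right), in percent, by annotated transcript type; the left bar of each pair is replicate 1 and the right bar replicate 2. The coding share of Mdm4 is 19.4% and 21.9% by TPM but 61.7% and 66.3% by counts.

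Trp53, Mdm2, Mdm4, Ccng1, Gadd45a and Gadd45g have more than 1 transcript and at least 10 TPM in both libraries, which was the minimum for comparing transcript use with other genes. Of these 6, Mdm2 and Mdm4 had a leading transcript by TPM that is not annotated as protein-coding in both libraries, beside 28.2% of 3362 such genes. By counts it was 0 of 6, beside 16.8%. The leading transcript was the same in both libraries for all 6, beside 90.6%. The leader's share changed by 9.86 percentage points between libraries in Trp53 and by 8.38 in Gadd45a, and 19.2% and 22.9% of genes changed at least as much. The median change was 3.16 points in the 6 genes and 3.23 in all. Neither change was unusual beside those of the other genes with several transcripts.

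The only contrast in the series is that of replicate 2 with replicate 1, which compares 2 libraries and not conditions. Its p-values cover counting error only and do not measure the spread between cultures. By an exact two-sided binomial test on TMM-scaled counts with Benjamini-Hochberg adjustment over 10445 genes, 59.2% of genes differed at an adjusted p under 0.05, that is 30.0% higher and 29.2% lower in replicate 2. Of the 10 genes 9 differed, 6 higher and 3 lower. Deep counts make small differences pass this test: among 6190 genes with at least 1000 counts, 75.1% differed, and 9 of the 10 genes are above that depth. The median absolute log2 difference was 0.15 in the set and 0.24 in all genes tested. With the ratio of total counts as the scale, the split of all genes was 2423 higher and 3776 lower, beside 3136 and 3047.

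**Figure D4:**
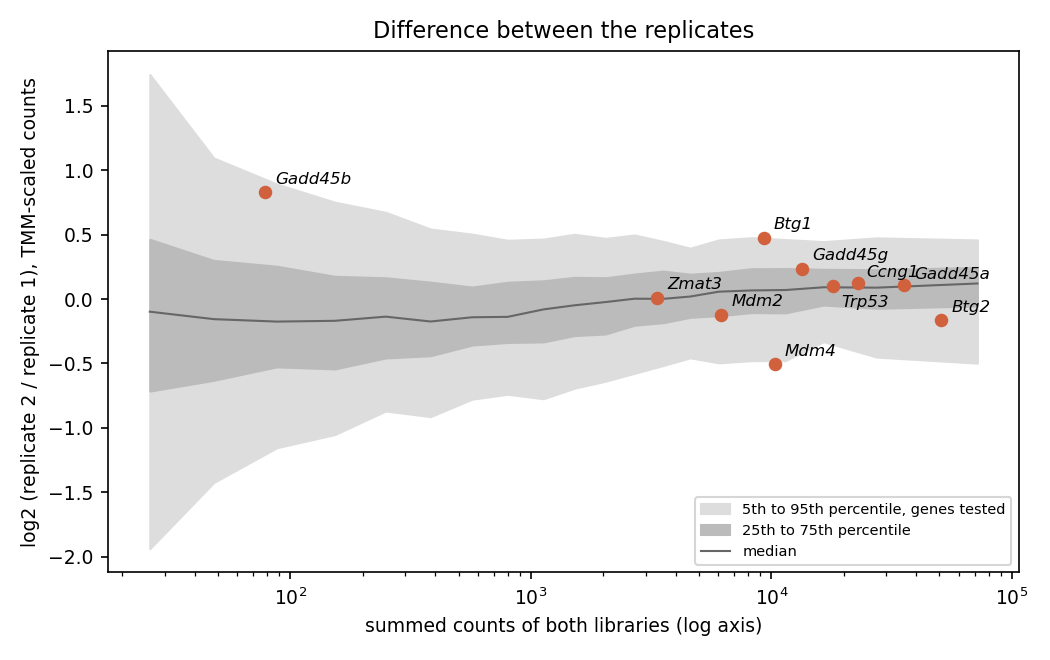
Log2 ratio of replicate 2 to replicate 1 from TMM-scaled counts against the summed counts of both libraries (log axis); points are the 10 genes and grey bands give percentiles of all genes tested. Mdm4 at -0.51, Btg1 at 0.48 and Gadd45b at 0.83 lie farthest from 0.

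Mdm4 was lower in replicate 2, from 6825 to 3486 counts, a log2 change of -0.51 or 1.42-fold (adjusted p = 2.16e-64, exact binomial test), and 10.2% of genes with at least 1000 counts were at least as far apart, as were 20.1% of all genes. This lay below the 5th percentile of genes of like depth, which was -0.48. Btg1 was higher in replicate 2, from 4619 to 4661 counts in the shallower library, by 0.48 or 1.39-fold (adjusted p = 1.22e-55), a distance reached by 11.5% of genes with at least 1000 counts and 22.0% of all. This lay at the 95th percentile of genes of like depth, 0.48. Gadd45b was higher by 0.83 or 1.78-fold on 34 and 44 counts (adjusted p = 0.0211), a distance reached by 7.50% of all genes, and below the 95th percentile of genes of like depth, 0.89. These were the 3 genes of the set with the greatest difference.

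The others lay within 0.24 of 0, distances that 40.8% to 97.2% of genes with at least 1000 counts reached or passed. Gadd45g (0.24, adjusted p = 4.47e-20), Ccng1 (0.13, adjusted p = 2.49e-10), Gadd45a (0.11, adjusted p = 3.18e-11) and Trp53 (0.10, adjusted p = 1.49e-05) were higher in replicate 2 by the exact binomial test. Btg2 (-0.17, adjusted p = 3.52e-36) and Mdm2 (-0.12, adjusted p = 0.00263) were lower by the same exact test. Zmat3 was not called (0.01, adjusted p = 0.901, exact binomial test). TPM gave the other direction for Gadd45a, Mdm2 and Zmat3; it differs from the scaled counts both in the library scale and in the effective length, and their parts were not tested. The call for Trp53 was lost with the ratio of total counts (0.03, adjusted p = 0.238, exact binomial test). With a GC correction those for Mdm2 (-0.05, adjusted p = 0.212) and Gadd45a (0.02, adjusted p = 0.319) were lost in the exact binomial test. Over all genes the median log2 difference went from -0.08 in the lowest of 4 equal groups by GC content to 0.10 in the highest.

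Other genes of these pathways were read from lists of known genes. Of 28 further members of the p53 family and regulators of p53, 21 reached 1 TPM in both libraries and 13 reached 10 TPM, and the median was 9.07 TPM. The highest were Nop53, a nucleolar protein gene (583.7 and 645.86 TPM), the ribosomal protein gene Rpl11, whose product binds MDM2 (615.81 and 462.01 TPM), and Ube4b, a ubiquitin chain elongation factor (477.09 and 500.72 TPM). Trp63, a p53 relative of epithelia, had 0 counts. Of 25 tested between the libraries, 12 were higher and 6 lower in replicate 2. These 72% stood beside 59.2% of all genes tested and 75.1% of those with at least 1000 counts. The checkpoint kinase gene Chek2 fell from 0.77 to 0.31 TPM (log2 -1.22, adjusted p = 4.48e-06, exact binomial test).

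Of 34 further genes listed as p53 targets, 21 reached 1 TPM in both libraries and 18 reached 10 TPM, and the median was 11.4 TPM. The pro-apoptotic genes Bbc3 (413.92 and 595.8 TPM) and Bax (316.52 and 215.87 TPM) and the ubiquitin ligase component gene Dda1 (295.34 and 274.46 TPM) were highest. Dda1 is on the list, and in the numbers given for it, but is not an established p53 target. The death receptor gene Fas and the membrane protein gene Perp had 0 counts. The listed genes thus ran from silent to among the most abundant. Between the libraries 9 of 29 tested were higher and 7 lower in replicate 2, or 55.2% called, beside 59.2% of all genes tested. Bbc3 was higher by 0.43 and Bax lower by 0.50 (adjusted p = 9.53e-221 and 9.92e-157, exact binomial test), and the kinase gene Plk3 was higher by 1.18 on 26 and 43 counts (adjusted p = 0.00192, exact binomial test).

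All 12 genes for partners of GADD45 proteins reached 1 TPM in both libraries and 4 reached 10 TPM, with a median of 9.09 TPM. Map2k7, a kinase of the JNK pathway, had 123.16 and 106.38 TPM, the DNA repair endonuclease gene Apex1 103.96 and 84.66 TPM, and Gadd45gip1, whose product binds GADD45 proteins, 58 and 57.85 TPM. Mapk8, which encodes JNK1, was lowest with 1.68 and 1.27 TPM. Between libraries 3 were higher and 7 lower in replicate 2, which is 83.3% of the 12. Of all genes tested 30.0% were higher and 29.2% lower, and 75.1% of those with at least 1000 counts differed. Cdk1, the mitotic kinase gene, fell from 24.43 to 8.13 TPM (log2 -1.35, adjusted p = 1.24e-36, exact binomial test), the largest fall over these lists.

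Of 20 measured genes of the BTG and TOB family and of the deadenylation machinery, 19 reached 1 TPM in both libraries and 11 reached 10 TPM, and the median was 17.6 TPM. The poly(A)-binding protein genes Pabpc1 (1537.75 and 1438.56 TPM) and Pabpc4 (495.01 and 558.39 TPM) and the CCR4-NOT subunit gene Cnot3 (538.73 and 494.8 TPM) were highest. Btg4, known from the oocyte, had 0 counts. Between libraries 6 of 19 tested were higher and 6 lower in replicate 2, or 63.2% called, beside 59.2% of all genes tested. Btg3 was higher in replicate 2 (17.48 and 31.3 TPM, log2 0.90, adjusted p = 2.12e-82, exact binomial test). Btg1 and Btg3 were thus both higher in replicate 2, while Btg2 was lower.

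**Figure D5:**
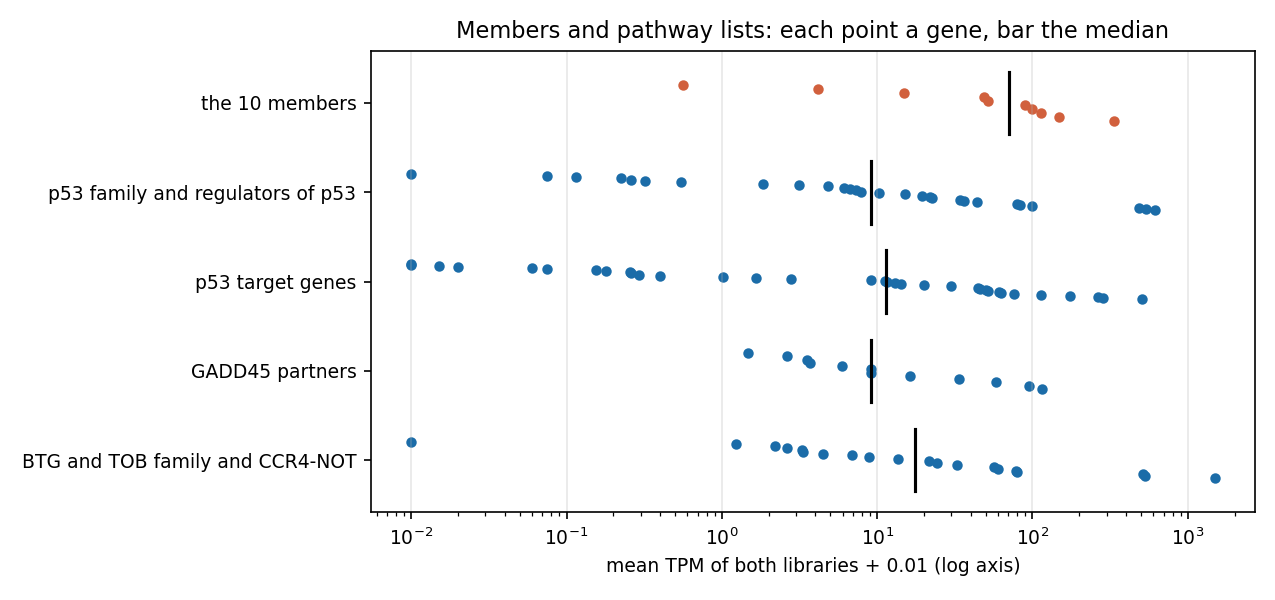
Mean TPM of both libraries plus 0.01 on a log axis, each point a gene and each bar the median of its list. The 10 genes have a median of 70.8 TPM, above the medians of 9.07 to 17.6 TPM of the 4 pathway lists.

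Promoter sequences were searched for the p53 half-site, the 10-base consensus that p53 binds as a pair and that reads the same on both strands. Windows of 250 bases before to 50 after each gene start came from RefSeq on GRCm38.p6. The 9 genes with an entry had 10 entries, of which 4, in 4 genes, held a match, or 40% beside 8.36% of all 32851 entries. Zmat3 has no entry. Bases outside the windows were not searched, so a gene without a match here may hold one elsewhere. The 30-base stretches around these matches are shown on the gene's strand with the half-site in capitals, at chr6:67037428-67037457, chr10:117710925-117710954, chr11:40755452-40755481 and chr11:69580274-69580303. A match is a description of letters and not a site of binding.
Gadd45a: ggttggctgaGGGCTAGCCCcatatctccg
Mdm2: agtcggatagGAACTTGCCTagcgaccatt
Ccng1: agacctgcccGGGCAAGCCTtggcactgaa
Trp53: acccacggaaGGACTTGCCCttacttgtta
Counted from the RefSeq gene start, the matches begin 40 bases before it in Gadd45a, 186 in Mdm2, 185 in Ccng1 and 75 in Trp53. The GENCODE gene of Gadd45a given above starts further upstream, and the match lies inside it. The levels of these 4 genes ran from 48.6 to 335.09 TPM, and those of the 5 genes with an entry and no match from 0.555 to 147.7 TPM.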

How the data were processed

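Poly(A) RNA-seq of 2 libraries of 1 group was analysed. The authors deposited expected counts, per gene and transcript, as estimates with decimals. TPM and FPKM were deposited beside them as length-scaled levels, and the authors' deposited percent gives each transcript's share of a gene's TPM. The build is mm10 with GENCODE M4 per the deposited description files; the labels and headers name no aligner or quantifier, those being not given in the sources used here. Names, GC content and transcript types were taken from GENCODE M21 (same build, 42462 of 43346 gene rows matched); the lengths of a few transcripts differ between the releases, among them Btg1-201 (5010 and 5001 bases). Another 26248 rows named by a number and 97 spike-in rows were left out; they held 5 and 4 counts. The list gene Prmt1 was not matched and was not analysed here.

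Members and lists were chosen with earlier results of these data known. Genes named are the 10 members and the 3 highest and the lowest gene of each list. Perp and Fas tied for the lowest. Also named are the 2 largest called changes each way over the lists, and genes whose names mark them as pseudogenes of members. Of the latter, Btg1-ps1 and Btg1-ps2 are annotated as protein-coding. Wrap53, E230016M11Rik and Gm29257 were added after their values were seen. Ratios are log2(TPM + 0.01), which hardly alters any gene but Gadd45b. Counts were rounded to whole numbers and compared between libraries with a two-sided exact binomial test that used the TMM ratio of edgeR 4.0.16; genes needed 20 counts in sum, and p-values were adjusted by Benjamini-Hochberg. Other settings were DESeq2 1.42.0 size factors, total counts, GC correction in 20 bins, count minimums, posterior means, FPKM, a pseudocount of 1, and leaving out globin and mitochondrial genes or a replicate. Counting protein-coding transcripts alone was chosen after seeing the data. Only the binomial test and the GC-bin adjustment were tried on simulated data. The simulated counts for the binomial test were Poisson, with no spread between libraries beyond counting error. Python 3.11.15, scipy 1.17.1 and R 4.3.3 were used.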

Additional observations from a re-analysis of the deposited data

How the results depend on the processing

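The median level of the 10 genes was 70.8 TPM. It was 61.9 TPM after adjustment for GC content, 98.0 TPM with globin and mitochondrial genes left out of the total and 36.0 TPM from protein-coding transcripts alone, the last chosen after seeing the data; leaving out a replicate gave 64.95 to 69.7 TPM. The count of 8 genes at or above 10 TPM was the same in every setting run. Mdm4 over Trp53, 0.11 on the log2 scale, turned to -1.98 with protein-coding transcripts alone, was 1.61 after adjustment for GC content and ranged from -0.24 to 0.45 when a replicate was left out. The number of members with a non-coding leading transcript fell from 2 to 0 by share of counts, since counts are not divided by length. Between replicates, 7 to 9 members were called in all settings; Zmat3 turned to -0.060 with the ratio of total counts (adjusted p = 0.31, exact binomial test), uncalled in both. The binomial contrast has 1 library a side, so it could not be run without a replicate. No paired analysis was possible because both libraries belong to 1 group. Depth limits Gadd45b, at 34 and 44 counts, most.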
